A study of Drosophila melanogaster with 3 samples.

Results

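The genes described here were listed as muscle sarcomere genes, and their chromatin was examined for binding by tagged Pif1B in pupae of the fruit fly Drosophila melanogaster. The 32 genes were taken from a fixed list of names, out of 13945 protein-coding genes annotated on chromosomes X, 2, 3 and 4. A region belonged to a gene when its summit lay inside the gene or within 2 kb of it, and it was a promoter region when the summit lay within 500 bp of an annotated start of that gene. The flies came from a stable transgenic line (strain Pif1B-GFP) that expresses Pif1B-eGFP, a fusion with the tag at the C-terminal end of Pif1B, and chromatin was recovered with an antibody against GFP and sequenced (ChIP-seq). The 3 biological replicates formed 1 group, in which both sexes were mixed and the age of the pupae was not stated, and there was no other genotype, stage or treatment. The sequence that drives the fusion gene is not given in the sources used here. Whole pupae mix all tissues and no RNA was measured, so the share of muscle in the chromatin could not be checked.

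The sarcomere is the repeating contractile unit of striated muscle. Thick filaments of myosin slide along thin filaments of actin, and calcium acts on thin filaments through troponin and tropomyosin. Thin filaments are anchored in the Z-disc, and giant elastic proteins connect the Z-disc to the thick filaments. In the fly pupa the larval muscles are largely broken down and the adult flight, leg and abdominal muscles are built. Each gene was listed for a role in this structure or in its links to the nucleus and the membrane. These roles could not be checked in these data. Pif1B is named for its interaction with the PFTAIRE kinase Eip63E.

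The authors kept the peaks that met a limit on the irreproducible discovery rate (IDR). Those at sarcomere genes were unevenly spread, and 1 gene held the largest share. Of the 32 genes, 9 had an IDR summit (28.1%), against 29.8% of all protein-coding genes, so the share was near the background. These 9 genes held 40 IDR summits, of which 18 (45%) were at Svil, a supervillin-type actin-binding protein. Another 6 were at Zasp52, 4 at Msp300, 3 each at tmod and Actn, 2 each at sls and Mlc2, and 1 each at Tm1 and Act87E. The genes of the filaments themselves (myosin, actin, tropomyosin, troponin and their close partners) held 4 of the 40 summits. These were at 3 of 18 genes (16.7%), against 29.8% of all genes. The filament genes spanned 1.44 to 30.6 kb, and their share was not matched for span. Among all genes the share was 21.8% under 5 kb, 48.8% at 5 to 20 kb and 64.9% at 20 to 50 kb. No test was made over the list, because there was 1 group and the genes were chosen with earlier results of these data known.

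The sequences under 6 sites of chosen members are shown, to let the sites themselves be compared. These are not the 6 strongest sites of the list. The Tm1 site, at a signal of 126, lay below the median of 137 over all IDR peaks. Each line gives the bases centred on a summit, 50 to each side, 5′ to 3′ on the strand of the gene, from the RefSeq genome in the build dm6. Capitals mark matches on either strand to the word GAGAG of the GAGA factor, the DRE word TATCGATA, the E-box word CANNTG, the AT-rich word TATAAA or the consensus of the muscle factor MEF2. The windows of sls (chr3L:2115801-2115901, minus strand), tmod (chr3R:30570712-30570812, plus strand), Msp300 (chr2L:5108134-5108234, plus strand) and Tm1 (chr3R:15281060-15281160, plus strand) are the strongest promoter summits of those genes. The 2 windows of Svil, both on the plus strand, are its strongest promoter summit (chr3L:2417585-2417685) and its strongest intronic summit (chr3L:2472796-2472896).
sls promoter: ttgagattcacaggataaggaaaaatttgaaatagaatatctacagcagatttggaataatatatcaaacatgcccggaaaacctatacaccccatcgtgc
tmod promoter: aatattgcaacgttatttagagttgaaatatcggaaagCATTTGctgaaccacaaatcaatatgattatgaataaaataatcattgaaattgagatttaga
Msp300 promoter: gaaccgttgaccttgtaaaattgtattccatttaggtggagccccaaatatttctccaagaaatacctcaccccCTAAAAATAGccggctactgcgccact
Tm1 promoter: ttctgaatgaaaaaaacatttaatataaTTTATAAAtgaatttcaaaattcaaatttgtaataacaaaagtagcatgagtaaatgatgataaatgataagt
Svil promoter: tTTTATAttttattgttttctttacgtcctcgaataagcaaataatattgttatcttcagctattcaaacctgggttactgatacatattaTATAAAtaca
Svil intron: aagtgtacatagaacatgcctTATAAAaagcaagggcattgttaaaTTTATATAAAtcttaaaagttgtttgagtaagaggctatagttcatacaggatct

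The 6 windows differed in base content and in the words they held. GC content was 17.8% at Tm1, 24.8% at the Svil promoter, 25.7% at tmod, 29.7% at the Svil intron, 35.6% at sls and 44.6% at Msp300. The sls window held none of the 5 words, the tmod window held a CANNTG word, and the Msp300 window held the MEF2 consensus. The Tm1 window and both Svil windows held TATAAA, which is given as a description of the sequence only. Over the 40 member summits the mean GC content was 34.5% ± 10.5 (SD over windows), against 35.5% ± 9.87 over all 6410 IDR summits. TATAAA was in 27.5% of the member windows and 20.6% of all windows, GAGAG in 15% and 16.5%, and CANNTG, the E-box bound by bHLH factors such as Twist, in 22.5% and 35.1%. The MEF2 consensus was in 3 of 40 (7.5%) and in 5.88% of all windows. Without Svil, which gave 18 of the 40 windows, the MEF2 consensus was in 3 of 22 (13.6%), CANNTG in 31.8%, GAGAG in 18.2% and TATAAA in 27.3%. TATCGATA, the DRE bound by DREF, was in 0 of 40 and in 0.468% of all windows. The 3 MEF2 matches were at Msp300, where a promoter and an intronic window held it, and at the window upstream of Zasp52.

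**Figure D1:**
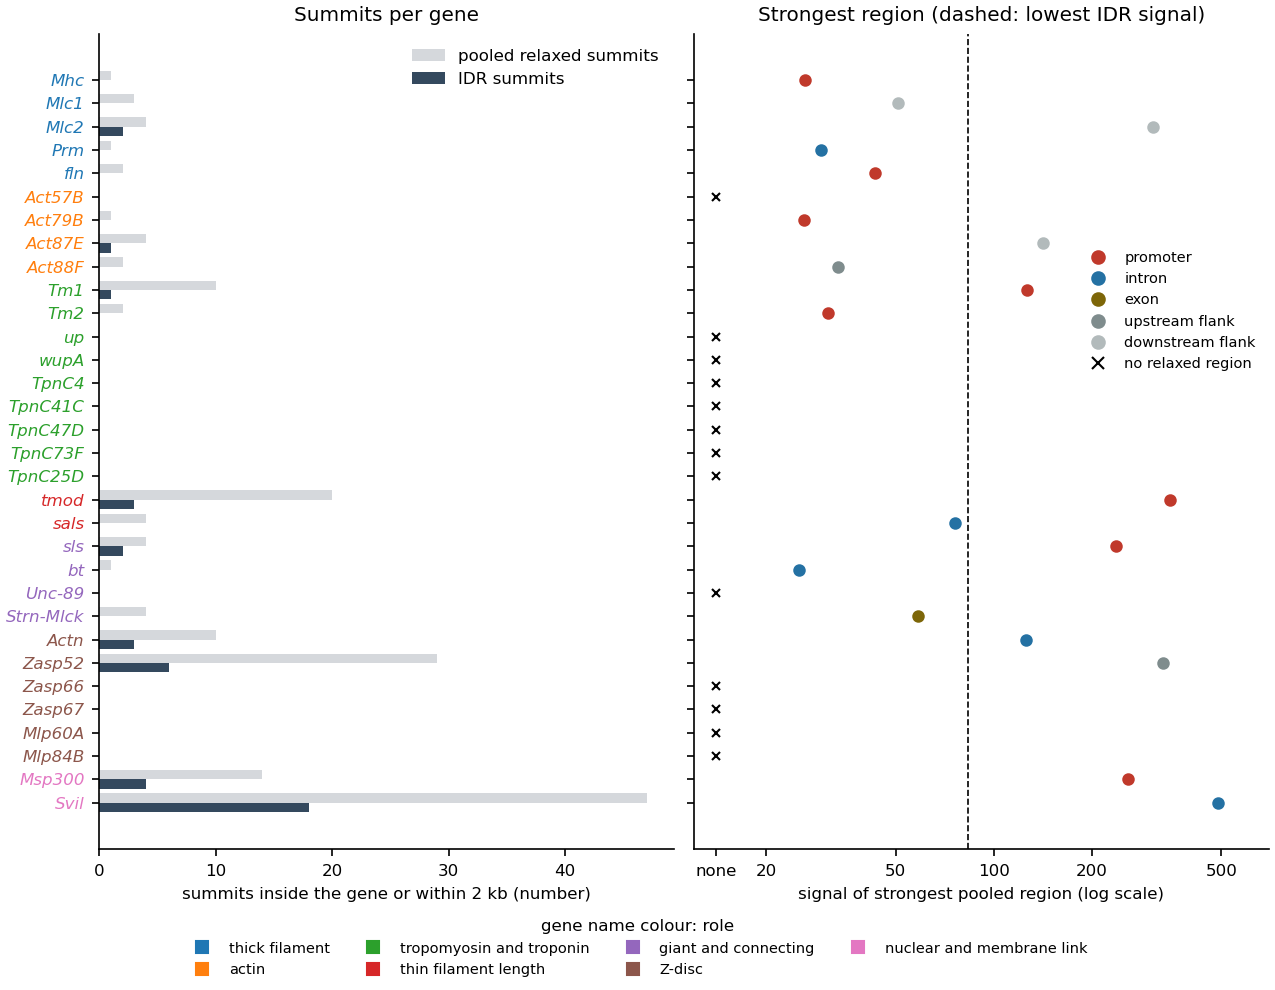
Left, the number of IDR and pooled relaxed summits inside each of the 32 genes or within 2 kb, with gene names coloured by role. Right, the signal of the strongest pooled region of each gene on a log scale, coloured by its place. A cross marks the 13 genes with no pooled relaxed region, and 9 genes lie to the right of the lowest IDR signal of 83.2.

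Members with sites were longer in the median, as were all genes with sites, and the list was read against genes of like span. The median span was 9.43 kb over the 32 genes and 2.17 kb over all protein-coding genes. It was 46.3 kb for the 9 members with an IDR summit and 4.97 kb for the 23 without, while over all protein-coding genes it was 4.12 kb with and 1.82 kb without. Of the 9, Act87E and Mlc2 were short, at 2.39 and 3.11 kb. Of the members of under 5 kb, 2 of 14 had an IDR summit, against 21.8% of all genes of that span, and of those of 5 to 20 kb 1 of 9, against 48.8%. Of those of 20 to 50 kb, 2 of 4 had a summit, against 64.9%, and of those of 50 kb or more 4 of 5, against 68.4%. Taken as 2 classes, among members of under 20 kb 3 of 23 had an IDR summit (13.0%), against 27.0% of all genes of that span. Among members of 20 kb or more, 6 of 9 had one (66.7%), against 65.9%. Per kb of gene and margin, the members held 0.0481 IDR summits and all protein-coding genes 0.0538. Without Svil the members held 0.0312 per kb, and the 18 filament genes held 0.0208 per kb. The other 13 members without Svil held 0.0350 per kb.

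**Figure D2:**
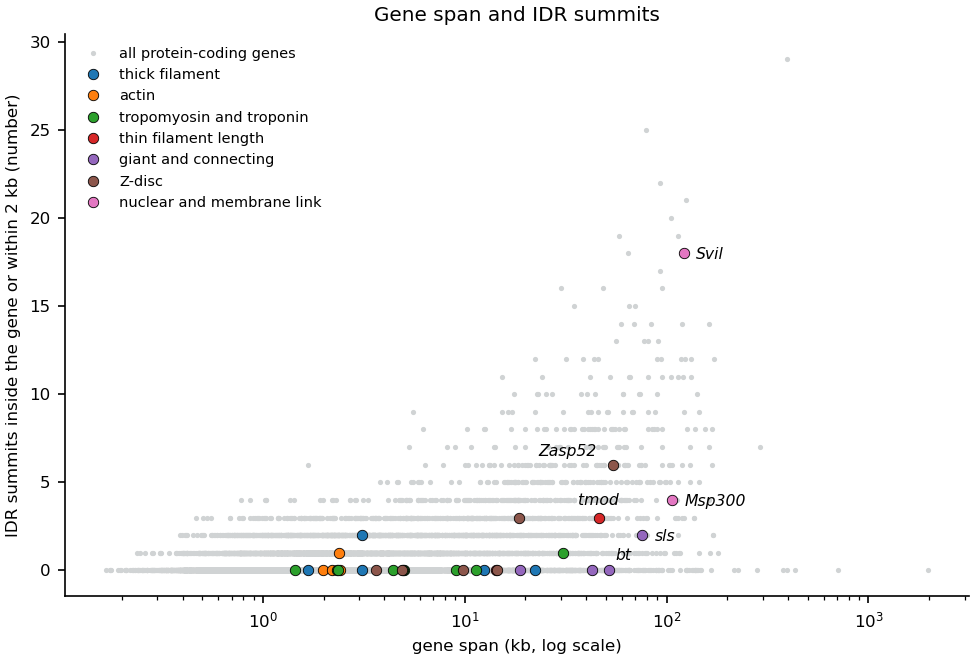
Each point is a protein-coding gene, with its span in kb on a log scale and the number of IDR summits inside it or within 2 kb. Sarcomere genes are coloured by role. Svil, with 18 summits, stands above the other members, and bt, at 52.1 kb, has none.

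Weaker regions gave a like picture. The authors also deposited a relaxed list of 29999 regions called on the pooled replicates, which reaches down to a signal of 19.4. Of the 32 members, 19 had a summit of this list (59.4%), against 54.7% of all protein-coding genes. In the span class of under 20 kb the counts were 10 of 23 members (43.5%) and 51.5% of all genes, and of 20 kb or more 9 of 9 members and 96.4%. In narrower classes 6 of 14 members of under 5 kb had one, against 45.5% of all genes of that span, and 4 of 9 of 5 to 20 kb, against 76.7%. All 4 of 20 to 50 kb and all 5 of 50 kb or more had one, against 97.2% and 94.8%. At their own starts 14 of 32 members had a relaxed summit, against 33.5% of all genes, and 7 of 32 had an IDR summit there (21.9%), against 15.6%. These shares were not matched for span or for the number of annotated starts. A gene with more starts has more places to be counted, and Svil had 16 and tmod 9. With a start distance of 250 bp, 5 members had an IDR summit at a start. The median distance from a start to the nearest IDR summit, taken at the closest start of each gene, was 11.4 kb over the members and 8.87 kb over all protein-coding genes.

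Genes of the thick filament had mostly weak regions. Mhc, which encodes the muscle myosin heavy chain, had 1 relaxed region, 13 bp from a start, with a signal of 26.4. It overlapped a region of replicate 3 alone, at rank 19525, and the nearest IDR summit to a start of Mhc was 45.7 kb away. Mlc1, an alkali myosin light chain, had 3 relaxed regions of at most 50.8, and Prm, which encodes paramyosin and miniparamyosin of the filament core, had 1 of 29.5 in an intron. The flight muscle protein flightin, encoded by fln, had a region of 43.1 at its start that was also at the starts of Nca and CG7646. Mlc2, the regulatory light chain, was the only gene of this group with IDR summits. Its 2 summits lay at its 3' end, at signals of 309 and 127, and both were within 500 bp of the start of the neighbouring gene Rsod. The stronger, 3.71 kb from the start of Mlc2 (3R, 30170706 to 30170956), ranked 916, 595 and 1060 in replicates 1, 2 and 3.

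No actin gene had an IDR summit at its start, and 2 of the 4 had a relaxed region there, against 15.6% and 33.5% of all protein-coding genes. Act88F encodes the actin of the indirect flight muscles, and its strongest region, 973 bp upstream, had a signal of 33.3. Act79B, an actin of tubular muscles, had 1 region of 26.1, 93 bp from its start, and Act57B, an actin of larval muscles, had no region in the pooled list or in the list of any replicate. Act87E, also a larval muscle actin, had an IDR summit in its downstream flank, 2.05 kb from its start, at a signal of 141 (3R, 13428431 to 13428557). That summit ranked 1747, 6122 and 4956 in replicates 1, 2 and 3. At 251 bp from a start of Act87E the pooled signal was 77.6, below the lowest IDR signal of 83.2, and its ranks were 9014, 6878 and 8102.

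The 7 troponin genes held no region of the pooled relaxed list. That list reaches 54.7% of all protein-coding genes, 45.5% of those under 5 kb and 76.7% of those of 5 to 20 kb. The troponin genes were up (troponin T, 9.11 kb), wupA (troponin I, 11.4 kb) and the troponin C genes, all under 5 kb. The latter, TpnC4, TpnC41C, TpnC47D, TpnC73F and TpnC25D, encode the calcium sensors of different muscles. TpnC4 is the troponin C of stretch-activated flight muscle. In the relaxed lists of single replicates there were 3 regions at up, 2 each at TpnC47D and TpnC73F, 1 each at wupA, TpnC4 and TpnC25D, and none at TpnC41C. The nearest IDR summits were 7.56 to 35.8 kb from the starts of 6 of these genes and 326 kb from that of TpnC41C, which lies near the centromere on 2R. Tropomyosin lies along the actin filament, and its genes Tm1 and Tm2 are neighbours on 3R. Tm2 had 2 relaxed regions of at most 31.0.

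Tm1 was the only filament gene with an IDR summit at a start. It had 10 relaxed regions over 30.6 kb and 8 annotated starts, and 1 region passed the IDR threshold, at a signal of 126 (15280895 to 15281324). The summit lay 261 bp from the nearest start and within 500 bp of 3 of the 8 starts. It ranked 6291, 2311 and 5426 in replicates 1, 2 and 3, so it was among the 6410 strongest regions of each, but close to that limit in replicate 1. The next strongest region of Tm1, in an intron, had a signal of 70.8.

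The genes that set thin filament length differed from each other. The tmod gene encodes tropomodulin, which caps the pointed end of the thin filament. It spans 46.3 kb of 3R with 9 starts and had 20 relaxed and 3 IDR summits. The strongest, at a signal of 348 (30570636 to 30570862), lay 395 bp from 1 internal start and ranked 978, 447 and 825 in replicates 1, 2 and 3. The other 2 were intronic, at signals of 104 and 85.8. The summit at 104 ranked 7431, 5411 and 5055, and the summit at 85.8 ranked 7968, 6518 and 7825, outside the 6410 strongest regions of every replicate. The sals gene (sarcomere length short), which acts in filament elongation, had no IDR summit. Its strongest region, in an intron, had a signal of 76.2 and ranked 4164, 19932 and 11027, so it was high in replicate 1 and low in the other 2.

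Among the giant proteins only sls had IDR summits. The sls gene encodes Sallimus and kettin, titin-like proteins of the connecting filament, and spans 75.9 kb of 3L with 1 annotated start position. A summit of 237 lay 240 bp upstream of that start (2115811 to 2115973) and a second of 174 lay 1.60 kb upstream (2117124 to 2117312). The first ranked 2605, 1189 and 1078 in replicates 1, 2 and 3 and the second 3958, 2323 and 1672, with replicate 1 the lowest for both. No IDR summit lay in the 75.9 kb of the gene body itself, where the strongest relaxed region had a signal of 48.2. The bt gene, which encodes projectin and lies on chromosome 4, had 1 relaxed region of 25.3 over 52.1 kb. Unc-89, annotated as Obsc and encoding obscurin of the M-line, had no pooled region, and 2 regions in replicate 2. Strn-Mlck, which encodes a myosin light chain kinase-like protein of flight muscle, had 4 relaxed regions, the strongest at 58.7.

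Of the Z-disc genes, 2 had IDR summits and 4 had no region in the pooled list. Zasp52 encodes a PDZ and LIM domain protein that binds alpha-actinin, and it had 29 relaxed and 6 IDR summits over 54.4 kb of 2R. Its strongest summit, at a signal of 331, lay 779 bp upstream of the first start (15817568 to 15817997) and ranked 485, 908 and 828 in replicates 1, 2 and 3. A promoter summit 3 bp from that start had a signal of 114 and ranked 6076, 2995 and 4101. Of the 3 annotated start positions of Zasp52, only that start had an IDR summit within 500 bp. More transcripts begin at another start, 15814917, which had none. The 3 intronic summits of Zasp52 had signals of 155, 137 and 99.7. The last 2 of these 3 differed in order between replicates, with ranks of 5595, 2376 and 3892 against 3260, 9831 and 5202. A summit of 235 lay just beyond the 3' end (15762394 to 15762527) and ranked 1377, 1544 and 1530. The gene tun overlaps this span and also contains 4 of the 6 summits.

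Actn encodes alpha-actinin, which cross-links actin filaments in the Z-disc and also in other cells. It had 3 IDR summits on X, all weak, at signals of 125, 95.8 and 83.8. The 2 at the 5' end of Actn were also within 500 bp of a start of usp, which encodes the partner of the ecdysone receptor. The summit at 125 (2041277 to 2041706) ranked 3467, 3150 and 5518 in replicates 1, 2 and 3. The third, at an internal start, ranked 5424, 6123 and 9827 and was therefore outside the strongest 6410 in replicate 3. Zasp66 and Zasp67, relatives of Zasp52, and Mlp60A and Mlp84B, muscle LIM proteins, had no pooled region. Zasp66 had none in any replicate either, while Zasp67, Mlp60A and Mlp84B had 4, 3 and 1 regions over the 3 replicate lists.

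Msp300 encodes a nesprin-type giant protein that links muscle nuclei to the cytoskeleton. It spans 106 kb of 2L and had 14 relaxed and 4 IDR summits, all close to internal starts. They formed 2 overlapping pairs, so the 40 summits of the list came to 38 separate places. The first pair had signals of 259 and 86.5, at 328 and 45 bp from a start (5107969 to 5108681). The second had signals of 219 and 98.0, at 639 and 439 bp from another start (5145532 to 5145961). The first pair overlapped regions at ranks 1397, 764 and 1674 in replicates 1, 2 and 3 and the second at ranks 2657, 753 and 1876. In both pairs replicate 2 gave the highest place.

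Svil held more IDR summits than any other member. It spans 122 kb of 3L (2377655 to 2499226), has 16 annotated start positions and held 47 relaxed and 18 IDR summits, with a median signal of 179. Over all protein-coding genes, 9 had as many IDR summits or more, Svil included. Of the 55 genes at least as long as Svil, 3 had as many or more, and the median of those 55 was 2. Of the 18 summits 4 were at promoters and 14 in introns, and 13 were supported by all 3 replicates. The other 12 of the 16 start positions had no IDR summit within 500 bp.

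The sites of Svil fell into 2 stretches. The first 7 summits lay in the 5' part and the last 11 in the 3' part, with 36.0 kb between them that held no IDR summit. The strongest of the whole list, at a signal of 488, lay in an intron 5.99 kb from the nearest start (2472686 to 2472962) and ranked 344, 244 and 318 in replicates 1, 2 and 3. An intronic summit of 435 (2418834 to 2419104) and a promoter summit of 423 (2417527 to 2417823) lay on either side of an internal start used by 4 transcripts. They ranked 365, 416 and 480, and 347, 293 and 695. A promoter summit of 337 (2494218 to 2494402) at the last start ranked 626, 861 and 706. The weakest, at 85.9 and 21 bp from another start, ranked 5727, 12218 and 6994 and was supported by replicate 1 alone. Near the 3' end 3 summits lay inside CG1146, a gene within the span of Svil, with signals of 96.2, 90.5 and 125, and none of these was supported by all 3 replicates.

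**Figure D3:**
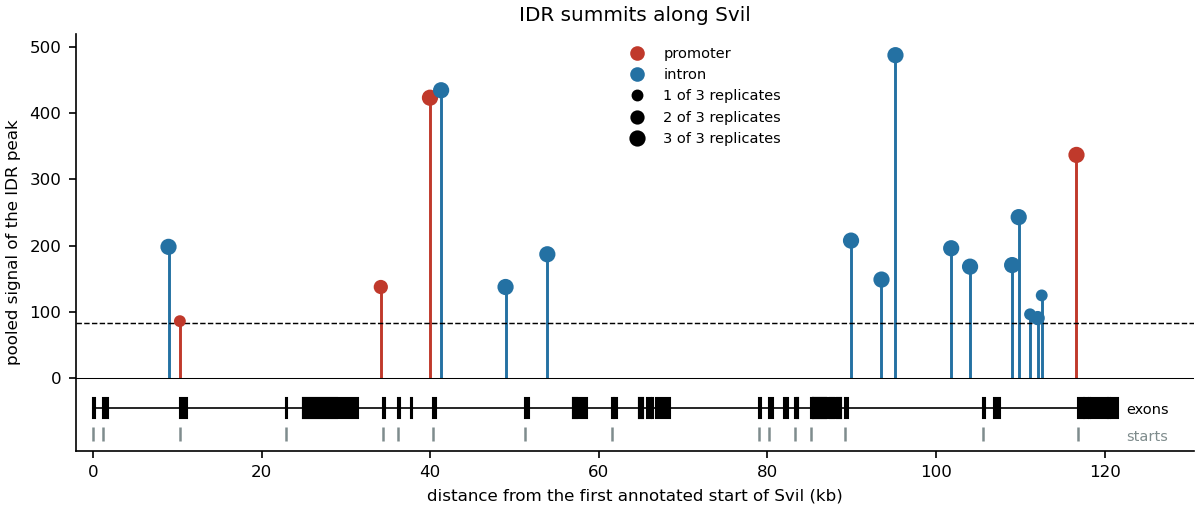
Pooled signal of the 18 IDR summits along Svil, with distance from its first annotated start in kb. Point size gives the number of supporting replicates, black boxes are exons and grey ticks are annotated starts. The dashed line is the lowest IDR signal of 83.2, and the strongest summit reaches 488.

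Promoter and intronic sites of the members were compared in number and strength. Of the 40 summits 13 were at promoters (32.5%, 95% Clopper-Pearson interval 18.6 to 49.1), 21 in introns, 1 in an exon, 2 in the upstream and 3 in the downstream flank. The interval treats summits as independent, although 18 were at Svil and 4 overlapped another IDR peak. Without Svil the share was 40.9%. Over all IDR peaks 33.9% lay within 500 bp of a start of any protein-coding gene. That is a wider rule than the one for members, which counted only a member's own starts. Of the 40 summits 6 lay within 500 bp of another gene's start, and not all of these were among the 13. The 2 shares are therefore not on the same measure. The median signal was 126 at promoter and 155 at intronic summits, a difference of -0.29 on the log2 scale of the signal. In the strongest regions of each replicate alone the same difference had a mean of 0.23 ± 0.40 (SD, n = 3), and its values were -0.025, 0.023 and 0.69 in replicates 1, 2 and 3. The pooled value lay below all 3 of these, whose sign differed between replicates, so no direction is given for signal. The median rank of promoter summits was 2657, 1189 and 1876 in replicates 1, 2 and 3 and that of intronic summits was 3260, 3150 and 2602. In these medians the weaker peak of each overlapping pair at Msp300, a promoter summit, carries the ranks of the stronger peak. With each pair counted once, a choice made after seeing the data, the 11 promoter summits had median ranks of 4180, 2311 and 1950 and the 21 intronic ones were as before. Promoters were then behind in replicate 1 and ahead in replicates 2 and 3, so no direction held in all replicates.

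Most member sites were shared by the replicates. A replicate supported a summit when at least 1 bp of the peak was covered by a region ranked within its first 6410. This held for 37, 34 and 35 of the 40 in replicates 1, 2 and 3 (88.3% ± 3.82, SD, n = 3). All 3 supported 31 (77.5%, interval 61.5 to 89.2, counting error only), against 65.6% of all IDR peaks. Among the remaining summits, 5 were backed by 2 replicates, 3 by a single replicate and 1 by no replicate. Overlap can credit a peak with the region of a stronger neighbour, as at the overlapping pairs of Msp300. With summits within 100 bp of each other full support was 70.0%, and the share of all IDR peaks was not computed by that rule. A summit with full support was found at 9 of the 32 members (28.1%), against 22.1% of all protein-coding genes. These were all 9 members with an IDR summit, and over all genes with an IDR summit the share with full support was 74.3%. Neither comparison of genes was matched for span or for summits per gene. A gene with more summits has more chances to hold 1 with full support. The median span was 46.3 kb for these members and 4.12 kb for all genes with an IDR summit, and 18 of the 40 summits were at Svil. The median signal of the 40 was 152 and that of all IDR peaks 137. Support and signal are linked by the way the IDR list was made from these replicates.

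Ranks varied by a median of 2.19 times between the best and the worst replicate of a summit and by 4.36 times at most. The median rank of the 40 was 2845, 2328 and 1993 in replicates 1, 2 and 3, and that of all IDR peaks 3124, 3224 and 3075. Among the 40, 6 were in the first 1000 of every replicate. Of these 4 were at Svil, with the upstream summit of Zasp52 and the internal start of tmod. Counted by the strongest regions of each replicate alone, 10, 11 and 9 of the 32 members had a region (10 ± 1, SD, n = 3). The members beyond the 9 were sals in replicate 1, and Unc-89 and Strn-Mlck in replicate 2.

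**Figure D4:**
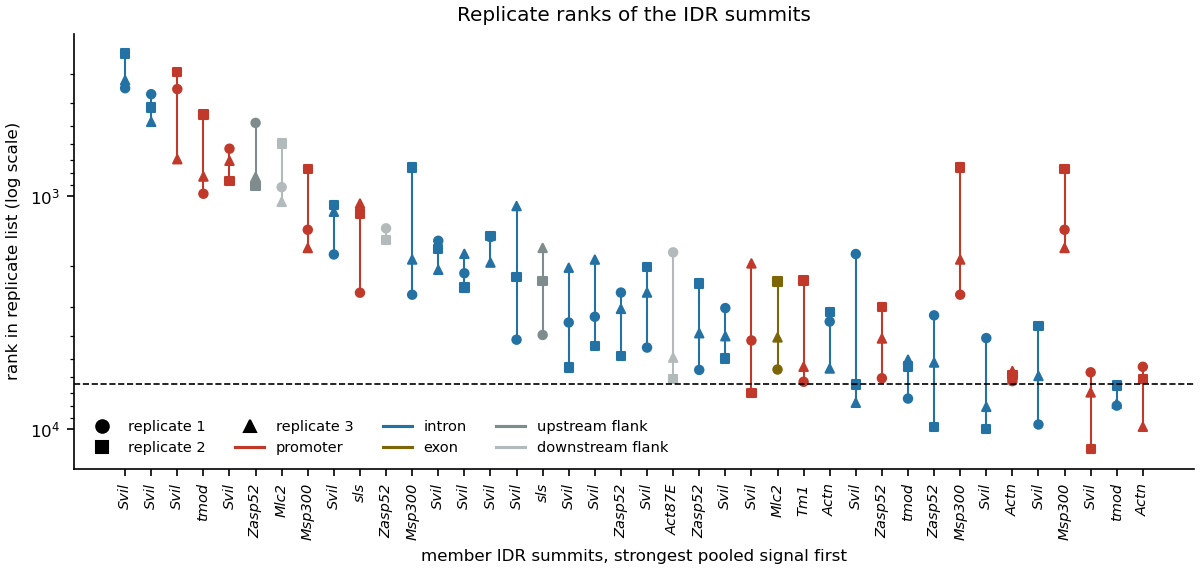
Rank of each of the 40 IDR summits in the relaxed lists of replicates 1, 2 and 3, on a log scale with the strongest at the top. Lines join the 3 replicates and are coloured by the place of the summit. Below the dashed line a region is outside the 6410 strongest of its replicate.

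Other muscle genes were described by lists with the same rule. Over all protein-coding genes 29.8% had an IDR summit, with 0.0538 summits per kb. Genes of muscle attachment, such as integrins and their partners, had an IDR summit in 10 of 12 cases, with 32 summits or 0.0831 per kb and a median span of 16.8 kb. The strongest were at if (412) and mew (391), which encode integrin alpha subunits. Genes of excitation and energy supply had one in 4 of 7 cases, with 0.0661 per kb and a median span of 18.5 kb. The strongest were at jp (602), which encodes junctophilin, and Argk1 (592), which encodes arginine kinase. The jp summit was also at a start of the neighbouring gene brwl. Genes of muscle transcription and splicing had one in 9 of 14 cases, with 0.0487 per kb and a median span of 28.5 kb. They were led by Mef2 (821), the main muscle transcription factor, and mbl (558), the splicing regulator muscleblind. The Mef2 summit lay 1097 bp upstream, at the starts of Pal1 and Pdrg1, and ranked 54, 86 and 78 in replicates 1, 2 and 3.

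Assembly factors and other muscle proteins had an IDR summit in 6 of 13 cases, with 0.0579 per kb and a median span of 4.10 kb. The strongest were at Hsp83 (709), the Hsp90 chaperone, and Fhos (330), a formin. The cytoplasmic counterparts of the filament proteins had one in 3 of 8 cases, with 0.0441 per kb and a median span of 8.27 kb. Among these, Act5C, the main cytoplasmic actin, had a summit of 610 that lay 669 bp upstream and ranked 190, 189 and 166 in replicates 1, 2 and 3. The start of sqh, the nonmuscle myosin regulatory light chain, had a summit of 317 with ranks of 708, 1231 and 772. The other cytoplasmic actin gene, Act42A, had no IDR or relaxed region, and neither had Mlc-c, which encodes a cytoplasmic myosin light chain. The gene zip, which encodes the nonmuscle myosin heavy chain, had 5 relaxed regions and no IDR summit, and its muscle relative Mhc had 1 relaxed region. These counts stand beside a background of 29.8% over all protein-coding genes, and differences in span between the lists were not adjusted for. Among all genes the share was 48.8% at 5 to 20 kb and 64.9% at 20 to 50 kb.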

How the data were processed

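Chromatin of 3 biological replicates of whole pupae was sheared by sonication, precipitated with an anti-GFP antibody and sequenced, per the labels. The authors deposited lists of peaks in the build dm6: a relaxed list for each replicate, a relaxed list called on the pooled replicates, and a list that passed an IDR threshold. The deposited signal of a peak is the authors' own enrichment value, and it was used only to describe and rank peaks within a list. No source used here names an aligner, a peak caller or the IDR limit applied. Lists of the same data in dm3 were not used and control libraries were not analysed here. Depth is unknown, so no precision could be taken from read numbers, and intervals cover counting error only.

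All 6410 IDR regions were the strongest regions of the pooled list. Summits were assigned to genes of Ensembl release 115 with a margin of 2 kb and a start distance of 500 bp, in Python 3.11.15 (pandas 2.3.3 and numpy 2.4.6 for tables, scipy 1.17.1 for intervals, matplotlib 3.10.9 for plots). Of the 32 symbols 31 matched directly and 1, Unc-89, through a RefSeq synonym. The assignment code was tested on simulated data, where 100% of 4000 summits planted at 200 genes got the class that the same rule sets. That test covered the code for the classes only, and not the reading of summits from the deposited lists. Named genes were all 32 members and, for the 5 other muscle lists, the 2 genes with the strongest IDR summit, and zip, Act42A and Mlc-c were added after their values were seen. The members and lists were chosen with earlier results of these data known. Alternatives changed the margin, the start distance, the list, the support rule and the replicates used. No p-value was computed, since there was 1 group.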

Additional observations from a re-analysis of the deposited data

How the results depend on the processing

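Of 78 alternative values, 39 stayed within the spread between replicates or within 1.5 times a count, 36 moved further and 3 changed sign. The number of members with an IDR summit, 9, became 7 with no margin and 13 with a 5 kb margin. It was also 7 with IDR peaks above the median signal. Only the pooled relaxed list moved it beyond 1.5 times, to 19. That list also gave 162 summits, 14 members with a promoter summit, a promoter share of 22.8%, a median signal of 38.8, full support of 25.9% and 0.195 summits per kb. IDR peaks above the median signal gave 22 summits, 4 members with a promoter summit, a promoter share of 22.7%, a median of 227, full support of 100% and 0.0265 per kb. Without Svil, an alternative chosen after seeing the data, there were 22 summits, a promoter share of 40.9%, a median of 132, full support of 81.8% and 0.0312 per kb. Counting overlapping peaks once, also chosen after seeing the data, gave 38 summits and a promoter minus intronic difference of -0.17. The promoter share was 15% at 250 bp, 42.5% at 1000 bp and 26.5% with a 5 kb margin. Full support was 71.9% with no margin, 73.5% with 5 kb, 70.0% with summits within 100 bp of each other and 100% with any relaxed region. With no margin there were 0.0453 summits per kb. Leaving out summits at the start of another gene gave a median of 168 and 0.0421 per kb.

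With each replicate left out in turn, 9 members kept an IDR summit in number, with 32 to 33 summits, 7 members with a promoter summit, a promoter share of 30.3% to 34.4%, a median of 174 to 180, full support of 80.0% to 82.5% and 0.0385 to 0.0397 per kb. Here fewer peaks enter by construction. The promoter minus intronic difference in log2 signal, -0.29, was 0.77 above the median signal and 0.72 in the relaxed list, and ranged from -0.56 to 0.021, the last without replicate 1; the cause was not tested. No paired analysis was possible because there was 1 group. Depth limits could not be set from peak lists.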
